A study of Mus musculus with 50 samples.

Results

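The CXC chemokines examined here are 8 genes, Cxcl1, Cxcl2, Cxcl3, Cxcl9, Cxcl10, Cxcl11, Cxcl14 and Cxcl16, taken by gene symbol from the deposited tables of 55416 genes. Poly-A RNA had been sequenced from RAW264.7, a mouse macrophage line, in 50 libraries. Control cells carried an empty guide vector, and the other lines lacked SGK1, SGK3 or both (SGK1/SGK3 double KO). SGK1 and SGK3 are serine/threonine kinases activated downstream of PI3-kinase. Cells were untreated or had received 10 µg/mL of DMXAA, which activates mouse STING, for 2 h, and 1 group of control cells had first been given 500 nM of the SGK inhibitor Sanofi-14h for 2 h. The labels place the libraries in 3 batches. Batch b1 held 3 untreated and 5 DMXAA-treated libraries of control cells and as many of the SGK3 KO, 5 of control cells given Sanofi-14h before DMXAA, and 5 of the DMXAA-treated double KO. Batch b2 held 3 untreated and 4 DMXAA-treated libraries of control cells and as many of the SGK1 KO, and 3 of each kind of the double KO. The remaining 4 libraries, b3, are reruns and entered no main comparison. Each genotype is 1 line, with no word on clonality, and the labels do not say which control libraries received the vehicle or whether replicates were separate cultures.

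Chemokines are small secreted proteins that direct the migration of leukocytes through G protein-coupled receptors. Cxcl1, Cxcl2 and Cxcl3 attract neutrophils through Cxcr2 and are classical NF-kappa B targets. Cxcl9, Cxcl10 and Cxcl11 attract activated T cells and natural killer cells through Cxcr3 and are induced by interferons, and Cxcl10 is also a direct target of IRF3, which STING activates through the kinase TBK1. Cxcl14 is a largely constitutive chemokine, and Cxcl16 is made as a membrane protein, is shed by Adam10 and binds Cxcr6.

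On GRCm39, as the files give it, 6 of the 8 genes lie on chromosome 5. Cxcl3 (ENSMUSG00000029379.11) spans chr5:90933962-90937459, Cxcl1 (ENSMUSG00000029380.12) chr5:91039100-91040974 and Cxcl2 (ENSMUSG00000058427.11) chr5:91051730-91053797, all on the plus strand. Cxcl1 and Cxcl2 are 10.8 kb apart, and Cxcl3 is 101.6 kb from Cxcl1. The Cxcr3 ligands form a second cluster on the minus strand, Cxcl9 (ENSMUSG00000029417.10) at chr5:92469206-92475938, Cxcl10 (ENSMUSG00000034855.14) at chr5:92494497-92496748 and Cxcl11 (ENSMUSG00000060183.7) at chr5:92507403-92513344. The gaps in it are 18.6 kb and 10.7 kb. The annotation classes Cxcl11 as a polymorphic pseudogene. Cxcl14 (ENSMUSG00000021508.12) lies alone at chr13:56436456-56444364 and Cxcl16 (ENSMUSG00000018920.12) at chr11:70344809-70350810, both on the minus strand. Cxcl10 and Cxcl11 overlap Art3 on the other strand, Cxcl11 also overlaps Gm2673 there, and Cxcl16 overlaps Zmynd15. Counts of Gm2673 are not given here. Strand use in counting is not given in the sources used here, so reads of such partners cannot be told apart. Art3 held 0 to 68 counts per library, beside 7 to 9 of Cxcl11 in the untreated SGK3 KO and 17 to 25 in the stimulated double KO of b2, and low Cxcl11 values are uncertain for that reason. Zmynd15 held 162 to 521 counts.

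The promoters of Cxcl10 and of the 3 neutrophil chemokines are shown because all 4 hold a kappa B match and the genes were detected at very different levels. Each line holds the 250 bases before the RefSeq start on the gene's strand (RefSeq, GRCm38.p6), at chr5:92348890-92349139 for Cxcl10, chr5:90890995-90891244 for Cxcl1, chr5:90903649-90903898 for Cxcl2 and chr5:90785851-90786100 for Cxcl3. Capitals mark matches to the kappa B consensus and to the interferon-stimulated response element (ISRE, searched as GAAA and again GAAA with any 2 bases between).
Cxcl10: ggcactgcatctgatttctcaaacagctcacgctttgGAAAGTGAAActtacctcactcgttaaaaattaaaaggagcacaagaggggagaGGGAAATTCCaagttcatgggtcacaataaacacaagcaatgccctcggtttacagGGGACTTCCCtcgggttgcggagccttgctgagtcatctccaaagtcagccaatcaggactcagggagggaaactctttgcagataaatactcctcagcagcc
Cxcl1: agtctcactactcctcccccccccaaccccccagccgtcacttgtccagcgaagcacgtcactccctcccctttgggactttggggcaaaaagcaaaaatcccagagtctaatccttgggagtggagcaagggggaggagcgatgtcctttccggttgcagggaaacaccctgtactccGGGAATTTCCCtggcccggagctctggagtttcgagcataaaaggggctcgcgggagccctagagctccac
Cxcl2: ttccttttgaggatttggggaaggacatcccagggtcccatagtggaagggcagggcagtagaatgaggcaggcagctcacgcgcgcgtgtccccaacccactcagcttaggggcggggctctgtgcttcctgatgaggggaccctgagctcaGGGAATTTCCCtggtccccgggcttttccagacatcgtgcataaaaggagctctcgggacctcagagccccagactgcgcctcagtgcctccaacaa
Cxcl3: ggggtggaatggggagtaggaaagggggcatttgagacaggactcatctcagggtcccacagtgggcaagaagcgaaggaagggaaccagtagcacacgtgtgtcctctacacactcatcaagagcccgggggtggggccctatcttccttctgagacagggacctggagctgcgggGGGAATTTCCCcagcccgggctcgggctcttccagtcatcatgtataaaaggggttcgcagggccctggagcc

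Both strands of these 250 bases were searched, and 6 of the 8 genes had a table entry. The Cxcl10 window held the ISRE match GAAAGTGAAA 213 bases before the start, the kappa B matches GGGAAATTCC at 159 and GGGACTTCCC at 103 bases, the AP-1 letters TGAGTCA (searched as TGANTCA) at 74 and CCAAT at 54. Cxcl1, Cxcl2 and Cxcl3 shared 1 stretch, GGGAATTTCCC, which matches the kappa B consensus on either strand and began 71, 97 and 73 bases before their starts. None of these 3 windows held the ISRE letters. The Cxcl9 window held neither a kappa B nor an ISRE match, and the Cxcl14 window held the ISRE letters GAAACAGAAA and the letters TTCTGAGAA (the GAS element, searched as TTC and GAA with any 3 bases between). Among all 32851 windows of this length, 3.899% held the kappa B consensus, 2.977% the ISRE letters, 6.749% the AP-1 letters, 7.02% the GAS letters and 33.85% CCAAT. These matches describe letters only.

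Depth was 57859509 to 101068327 counts per library in b1 and 63461414 to 112007140 in b2. Levels are CPM, the counts scaled to a common library total after TMM scaling, and log2 fold changes ± SE and adjusted p-values come from edgeR's quasi-likelihood test fitted within each batch, with Benjamini-Hochberg adjustment over all tested genes and a threshold of 0.05. With DMXAA, Sgk1 was at 2.37 to 4.35 TPM in the double KO of b1 against 33.27 to 41.06 TPM in control cells, and in b2 at 1.26 to 5.75 TPM in the SGK1 KO and 1.51 to 3.51 TPM in the double KO against 19.96 to 29.72 TPM. Untreated, it was at 0.313 to 1.43 TPM in the double KO of b2 and 0.833 to 2.476 TPM in control cells, which overlapped. The untreated libraries labelled SGK1 KO had 0.156 TPM in D, 0.104 TPM in E and 3.90 TPM in F. In TPM, F lay above every untreated control library. In counts, F had 134, within the 77 to 213 of the untreated control libraries, beside 18 in D and 12 in E. Sgk1 was thus not lower in F than in control cells, and whether F is mislabelled was not tested. Sgk3 was not lower in the lines lacking it (44.3 to 53.1 TPM in the SGK3 KO against 44.3 to 55.8 TPM in control cells of b1), and a whole-gene count cannot show a small deletion. All 9 macrophage markers were detected, summing to 7399 to 14790 TPM over b1 and b2, and the summed markers of each of 6 other cell types reached at most 1.993 TPM. In b2, libraries E and F (SGK1 KO, untreated), P (SGK1 KO, DMXAA) and X (double KO, DMXAA) stood apart, their log2 CPM rising with gene length by 0.225, 0.343, 0.181 and 0.199 per doubling relative to the batch. The trend ran the other way in control libraries B (−0.2), L (−0.165) and N (−0.156) and double KO libraries T (−0.141) and I (−0.115), so the steepest rises were in knockout libraries and the steepest falls mostly in control ones. Only E, F, P and X were left out in an alternative.

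DMXAA changed the make-up of the CXC transcripts from mostly Cxcl16 and Cxcl14 to mostly Cxcl10. In untreated control cells of b1 the 8 genes summed to 78.1 TPM, of which Cxcl16 made up 65.9%, Cxcl14 20.6% and Cxcl10 12.1% ± 2.6 (SD, n = 3). With DMXAA the sum was 1136 TPM, and Cxcl10 made up 93.7% ± 0.33 (SD, n = 5). In the untreated SGK3 KO Cxcl10 was 1.78% ± 0.39 of the sum (SD, n = 3), and with DMXAA 84.0% ± 0.78 (SD, n = 5). In b2 the Cxcl10 share was 7.46% ± 0.40 in untreated control cells and 74.0% ± 4.1 with DMXAA. It was 2.2% and 70.3% in the SGK1 KO, and 1.79% and 65.2% in the double KO. Most of the rest was Cxcl14 and Cxcl16, at 11.5% and 13.0% in stimulated control cells of b2. Cxcl2, Cxcl3, Cxcl9 and Cxcl11 made up the small remainder beside Cxcl10, Cxcl14 and Cxcl16.

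The neutrophil chemokines were nearly silent apart from Cxcl2. Cxcl1 had 0 counts in all 50 libraries. A count of 0 allows up to 3 read pairs, taken here as 12 counts, and covers counting error only. Per raw library total, without TMM scaling, that is 0.129 to 0.196 CPM depending on the group. Cxcl3 had at most 5 counts, in 8 libraries. Neither passed the filter for testing. Cxcl2, whose protein is also called MIP-2, was therefore the only one of the 3 with values to compare.

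Cxcl2 rose with DMXAA in every line. In these bulk libraries, fewer expressing cells and less RNA per cell cannot be told apart. In b1 control cells it was 0.922, 0.680 and 0.177 CPM untreated and 7.82, 6.54, 7.76, 7.33 and 7.90 CPM with DMXAA. The groups did not overlap, and the log2 fold change was 3.65 ± 0.30 (adjusted p = 2.04e-11). In the SGK3 KO it was 0.614, 0.268 and 0.485 CPM untreated and 3.89, 4.69, 3.15, 2.703 and 3.38 CPM with DMXAA, a log2 change of 2.97 ± 0.30 (adjusted p = 3.24e-09). In b2 the log2 changes were 3.85 ± 0.67 in control cells, 4.78 ± 0.73 in the SGK1 KO and 4.09 ± 0.69 in the double KO, with adjusted p-values of 0.00114, 0.000153 and 0.000593. Without untreated SGK1 KO library E the second was 5.72, without F, which had 0 counts, it was 4.18, and without untreated double KO library G the last was 4.79, each still called. The difference between knockout and control responses passed the test in none of the lines (adjusted p = 0.602, 0.831 and 1).

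With DMXAA present, Cxcl2 differed between the b1 groups. It was 4.88, 3.82, 5.07, 5.26 and 3.86 CPM in control cells given Sanofi-14h and 5.10, 5.84, 7.39, 6.14 and 6.50 CPM in the double KO. The SGK3 KO lay wholly below the stimulated control cells (log2 −1.07 ± 0.21, adjusted p = 0.000251), as did the inhibitor group (−0.71 ± 0.21, adjusted p = 0.0137). The inhibitor call was lost when b1 and b2 were fitted together (adjusted p = 0.243). The double KO overlapped the control cells (−0.27 ± 0.21, adjusted p = 0.371) and lay above the SGK3 KO (0.80 ± 0.21, adjusted p = 0.0174). That call was lost in the joint fit (adjusted p = 0.433), in limma on TPM (0.11), and on leaving out any of double KO library 3 (0.0595), SGK3 KO library 3 (0.0517) or SGK3 KO library 4 (0.0635). By mean level, the b1 order was control, double KO, inhibitor and SGK3 KO, all with DMXAA, and each neighbouring pair overlapped in range.

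In b2, Cxcl2 with DMXAA was 4.50, 5.33, 7.11 and 8.36 CPM in control cells, 4.82, 3.79, 4.03 and 1.44 CPM in the SGK1 KO, and 5.59, 7.03 and 9.12 CPM in the double KO. Neither knockout passed the test against control cells (−0.85 ± 0.52, adjusted p = 0.360, and 0.20 ± 0.56, adjusted p = 0.902). The 95% intervals of these log2 differences were −1.87 to 0.18 and −0.90 to 1.29. All 3 double KO libraries lay above the 4 SGK1 KO libraries, but this difference did not pass the test either (1.04 ± 0.56, adjusted p = 0.474).

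Cxcl10 had the highest level of the 8 genes after DMXAA in every group. Untreated control cells of b1 had 7.72, 4.29 and 4.95 CPM, and with DMXAA they had 698.7, 670.3, 670.9, 641.2 and 618.1 CPM. The means were 5.65 ± 1.82 and 659.8 ± 31.0 CPM (SD), with no overlap. The fitted log2 change was 6.86 ± 0.24 (adjusted p = 1.36e-15), a 116-fold rise. Beside it, Cxcl2, Cxcl9 and Cxcl11 rose and Cxcl16 fell, so that 5 of the 6 tested members were called where 35.3% of the 16947 tested genes were. Cxcl9 is counted here although it passed the filter only through these stimulated cells.

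Cxcl10 rose with DMXAA in each knockout line as well. The SGK3 KO had 0.970, 1.27 and 0.953 CPM untreated and 305.8, 301.2, 316.0, 326.0 and 307.2 CPM with DMXAA (log2 8.19 ± 0.28, adjusted p = 1.28e-15). In this line 4 of 6 tested members were called, against 30.1% of genes. Among them, Cxcl11 had untreated counts under the counting limit given for Cxcl1. In b2, control cells had 8.27, 8.50 and 7.77 CPM untreated and 231.5, 314.1, 299.8 and 380.6 CPM with DMXAA (log2 5.23 ± 0.34, adjusted p = 1.56e-08). Every stimulated library lay above every untreated one. The SGK1 KO had 2.04, 2.93 and 1.47 CPM untreated and 301.3, 206.5, 309.3 and 122.5 CPM with DMXAA (log2 6.77 ± 0.37, adjusted p = 1.18e-09). The double KO had 1.91, 1.77 and 1.75 CPM untreated and 210.6, 236.5 and 132.7 CPM with DMXAA (log2 6.74 ± 0.38, adjusted p = 2.52e-09). In each of the 3 lines of b2, Cxcl10 and Cxcl2 were the 2 called members of 5 tested, where 3.98% of genes were called in control cells, 11.2% in the SGK1 KO and 6.76% in the double KO.

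**Figure D1:**
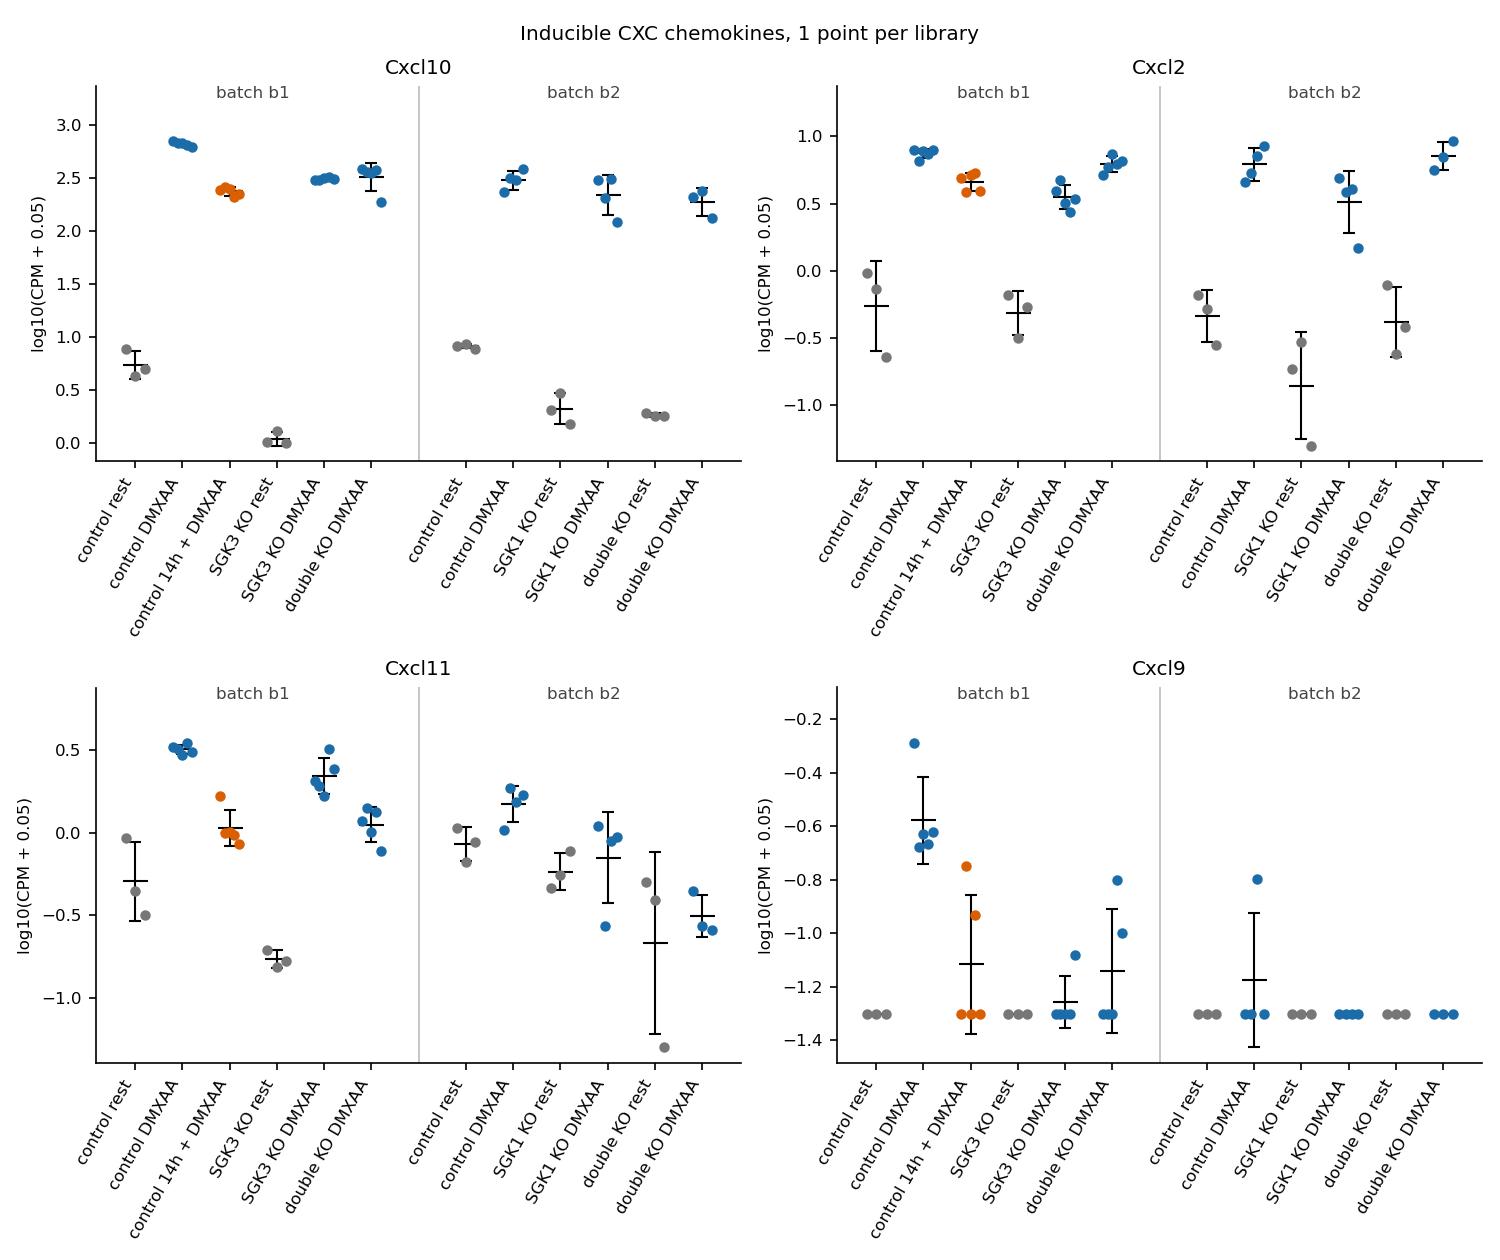
Points show log10(CPM + 0.05) of Cxcl10, Cxcl2, Cxcl11 and Cxcl9 in each library of b1 and b2 by group, grey untreated, blue with DMXAA and orange with Sanofi-14h then DMXAA, and bars show the mean ± SD on that scale; points at the bottom of the Cxcl9 panel are libraries with 0 counts. The 5 DMXAA-treated control libraries of b1 reach 618.1 to 698.7 CPM of Cxcl10, above all other groups.

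Untreated cells of every knockout line had less Cxcl10 than their controls. The log2 difference was −2.41 ± 0.30 in the SGK3 KO (adjusted p = 4.18e-06), a 5.30-fold lower level. In b2 it was −1.93 ± 0.32 in the SGK1 KO (adjusted p = 0.00176) and −2.17 ± 0.33 in the double KO (adjusted p = 0.000435). No untreated knockout library reached the lowest control library of its batch. Leaving out E, F, P and X keeps 1 untreated SGK1 KO library, assumed to vary like the other groups, and the SGK1 KO difference was then −2.0 with an adjusted p of 0.0914. Without library F alone it was −1.72 (adjusted p = 0.0143). In the untreated SGK3 KO 4 of 6 tested members were called, against 10.4% of genes. Among them, Cxcl11 had SGK3 KO counts under the counting limit given for Cxcl1. In the untreated SGK1 KO and double KO, edgeR fitted within the batch called 1 member of 5, Cxcl10, where 6.43% and 3.03% of genes were called. In the SGK1 KO, Cxcl2 at −1.78 was not called (adjusted p = 0.121), but DESeq2 (0.0389) and the joint fit (0.0184) called it, and the joint fit called Cxcl16 too.

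With DMXAA, Cxcl10 was lower in the SGK3 KO of b1 than in control cells (log2 −1.08 ± 0.14, adjusted p = 5.89e-06), 2.12-fold. The double KO of b1 had 383.6, 356.3, 351.8, 378.0 and 188.9 CPM (−0.99 ± 0.14, adjusted p = 1.51e-05), all below the lowest control library. Its library 5 was far below the other 4, and without single libraries of the 2 groups the log2 difference was −1.05 to −0.84. Control cells given Sanofi-14h had 241.6, 262.7, 248.9, 208.3 and 223.2 CPM (−1.48 ± 0.15, adjusted p = 1.86e-07), 2.78-fold less than without the inhibitor. The double KO did not pass the test against the SGK3 KO (0.09 ± 0.14, adjusted p = 0.888, 95% interval −0.19 to 0.37). By mean level the order in b1 was control, double KO, SGK3 KO and inhibitor, all with DMXAA. Control stood clear of the double KO, the double KO and SGK3 KO overlapped, and the SGK3 KO stood clear of the inhibitor group.

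In b2 the stimulated groups overlapped. The SGK1 KO differed from control cells by −0.38 ± 0.25 (adjusted p = 0.396) and the double KO by −0.67 ± 0.27 (adjusted p = 0.137). The double KO difference passed in DESeq2 (adjusted p = 0.0488) and in the joint fit of both batches (0.0309). The b1 minus b2 difference of the double KO effect was −0.32 ± 0.30 and did not pass the test (adjusted p = 0.605).

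The log2 response of Cxcl10 in each knockout line minus that in its controls was estimated at 1.32 ± 0.34 in the SGK3 KO, 1.55 ± 0.41 in the SGK1 KO and 1.51 ± 0.42 in the double KO. None passed edgeR's test, with adjusted p-values of 0.065, 0.140 and 0.144. DESeq2 called all 3 (0.000154, 0.00509 and 0.00583), and edgeR called the first without untreated control library 2 (0.038) and the second without SGK1 KO library R (0.019). With edgeR, 0 members were called in these 3 comparisons of responses, where 1.04%, 0.451% and 0.782% of genes were, while 2, 1 and 1 members had an unadjusted p under 0.05. DESeq2 called 1 member in each, limma on TPM 1, 0 and 0, and the joint fit 0, 1 and 1. The joint calls were Cxcl10 in the SGK1 KO (1.54, adjusted p = 0.0126) and the double KO (1.49, 0.0177). Without untreated control library 3, edgeR called Cxcl11 in the SGK3 KO (1.86, 0.0491), where its untreated counts were under the counting limit given for Cxcl1. The response of control cells differed between batches, being larger in b1 by 1.63 ± 0.34 (adjusted p = 0.00264 in the fit of both batches). In that fit 1 of 6 members was called, Cxcl10, where 3.21% of genes were, and limma on TPM also called Cxcl9 (1.21, adjusted p = 0.0383).

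Cxcl11 was low throughout. In b1 control cells it was 0.879, 0.393 and 0.266 CPM untreated and 3.26, 3.15, 2.90, 3.44 and 3.01 CPM with DMXAA (log2 2.61 ± 0.32, adjusted p = 5.52e-08). In the SGK3 KO it was 0.146, 0.104 and 0.117 CPM untreated and 2.02, 1.87, 1.63, 3.17 and 2.39 CPM with DMXAA (log2 4.16 ± 0.38, adjusted p = 1.80e-10). These untreated libraries had only 7 to 9 counts, under the counting limit given above for Cxcl1, so the size of this rise is uncertain. Untreated and stimulated libraries did not overlap in either line. Without untreated control library 1 the change in control cells was 3.26. In b2, control cells had 1.01, 0.617 and 0.823 CPM untreated and 0.991, 1.81, 1.49 and 1.63 CPM with DMXAA, and the ranges overlapped. No line of b2 passed the test (log2 0.86 ± 0.80, 0.46 ± 0.79 and 0.03 ± 0.86 in control cells, SGK1 KO and double KO; adjusted p = 0.873, 0.786 and 1). The batch difference in the control response was not called (1.75 ± 0.71, adjusted p = 0.226).

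Cxcl11 was lower in the untreated SGK3 KO than in control cells (log2 −2.06 ± 0.40, adjusted p = 0.000382), and the difference was −1.42 without control library 1, the highest (adjusted p = 0.0181). The SGK3 KO libraries, at 7 to 9 counts, lay under the counting limit given for Cxcl1. The control libraries, at 18 to 62 counts, lay above it. The size of this difference is therefore uncertain. With DMXAA the SGK3 KO overlapped the controls (−0.51 ± 0.24, adjusted p = 0.134). The double KO of b1 had 1.119, 1.36, 0.965, 1.29 and 0.719 CPM (−1.53 ± 0.25, adjusted p = 1.19e-05), and the inhibitor group had 1.61, 0.941, 0.965, 0.918 and 0.802 CPM (−1.60 ± 0.25, adjusted p = 1.47e-05). Both lay wholly below the stimulated control libraries. The double KO was also lower than the SGK3 KO (−1.02 ± 0.25, adjusted p = 0.00764), a call lost in the joint fit (0.391). These 2 lines differed in Cxcl2 and Cxcl11, 2 of 6 tested members, where 5.06% of genes were called. In b2 the stimulated double KO had 0.390, 0.222 and 0.205 CPM, all below the control libraries (−2.44 ± 0.86, adjusted p = 0.0692). DESeq2 (0.00429), limma on TPM (0.00364) and the joint fit (0.000865) called this difference.

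Cxcl9 was close to the floor of 12 counts. Its counts with DMXAA in control cells of b1 were 39, 11, 12, 13 and 13, and untreated control libraries of both batches had 0. Against the floor of 12 counts per library, the stimulated mean was at least 1.32-fold higher, and the adjusted p was 0.0123. The SGK3 KO with DMXAA had 0 counts in 4 of 5 libraries and 3 in the other, below the controls (adjusted p = 0.0143). The joint fit lost both calls (0.0525 and 0.0968). In b1 Cxcl9 passed the filter only through the stimulated control cells, so lower levels in other groups are not independent of that filter. The inhibitor group had 0, 12, 0, 4 and 0 counts and the double KO 0, 0, 0, 7 and 4, neither called (adjusted p = 0.153 and 0.0939), though limma on TPM called both (0.00131 and 0.000541) and edgeR called the latter without double KO library 4 (0.0412). In b2 Cxcl9 was at 0 in 19 of 20 libraries, with 8 counts in 1 control library given DMXAA, and was not tested.

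Cxcl14 was called between lines of b1 and not for DMXAA. In b1 it was 14.2, 14.5 and 14.5 CPM in untreated control cells and 17.8, 17.4, 13.5, 14.1 and 17.7 CPM with DMXAA, which did not pass the test (log2 0.16 ± 0.11, adjusted p = 0.258). The SGK3 KO had 23.7, 23.3 and 23.8 CPM untreated and 27.4, 26.2, 28.9, 28.9 and 28.5 CPM with DMXAA. These ranges did not overlap, though the rise did not pass the test (log2 0.25 ± 0.10, adjusted p = 0.0766). Every SGK3 KO library lay above every control library of its treatment. The log2 differences were 0.71 ± 0.12 untreated (adjusted p = 4.15e-05) and 0.80 ± 0.09 with DMXAA (adjusted p = 2.76e-08). The double KO had 35.8, 33.5, 31.5, 34.4 and 22.6 CPM (0.97 ± 0.09, adjusted p = 3.65e-10). Inhibitor-treated control cells moved the other way, with 12.5, 11.4, 12.2, 13.1 and 10.4 CPM (−0.44 ± 0.09, adjusted p = 0.000721).

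In b2, Cxcl14 was called in none of the comparisons. Group means were 62.2 to 72.6 CPM. Control cells had 75.4, 71.6, 70.6 and 72.8 CPM with DMXAA, and the double KO had 75.7, 67.2 and 43.6 CPM, the lowest being library X, 1 of those with a steep length trend. The double KO minus control difference with DMXAA was larger in b1 than in b2 by 1.21 ± 0.18 (adjusted p = 7.71e-06, joint fit), and by 1.00 to 1.37 without single libraries. On the deposited TPM, untreated control cells held 15.99 ± 0.32 TPM of Cxcl14 in b1 and 75.6 ± 10.99 TPM in b2 (SD, n = 3 each), and the ranges did not overlap. That gap between batches was not tested.

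Cxcl16 fell slightly with DMXAA in b1. Control cells had 73.4, 67.6 and 69.3 CPM untreated and 58.3, 57.8, 57.6, 49.5 and 60.3 CPM with DMXAA (log2 −0.31 ± 0.07, adjusted p = 0.000819). The SGK3 KO had 99.1, 98.3 and 105.7 CPM untreated and 76.0, 77.4, 82.4, 85.4 and 88.2 CPM with DMXAA (−0.30 ± 0.07, adjusted p = 0.0011). The difference between the 2 falls was close to 0 (0.00 ± 0.10, 95% interval −0.19 to 0.20). SGK3 KO libraries lay above their controls in both states, by 0.53 ± 0.08 untreated (adjusted p = 1.13e-05) and 0.53 ± 0.06 with DMXAA (adjusted p = 4.66e-08). The double KO of b1 had 82.4, 87.4, 86.7, 83.3 and 65.2 CPM (0.52 ± 0.06, adjusted p = 6.76e-08). The inhibitor left Cxcl16 within the control range (−0.01 ± 0.06, adjusted p = 0.960, 95% interval −0.13 to 0.11).

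In b2, Cxcl16 group means were 101.4 to 129.4 CPM. The change with DMXAA in control cells was −0.13 ± 0.10 (adjusted p = 0.748). All stimulated control libraries (113.6 to 121.4 CPM) nevertheless lay below the untreated ones (127.4 to 131.5 CPM). The double KO differed from stimulated control cells by 0.05 ± 0.10 (adjusted p = 0.843). The double KO difference was larger in b1 than in b2 by 0.48 ± 0.11 (adjusted p = 0.00427). The SGK1 KO minus control difference was −0.29 ± 0.10 at rest, with no overlap in range (adjusted p = 0.0864), and −0.22 ± 0.09 with DMXAA (adjusted p = 0.138), neither called. The joint fit called both (0.0141 and 0.0267), and the latter was also called without SGK1 KO library R (0.0191).

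**Figure D2:**
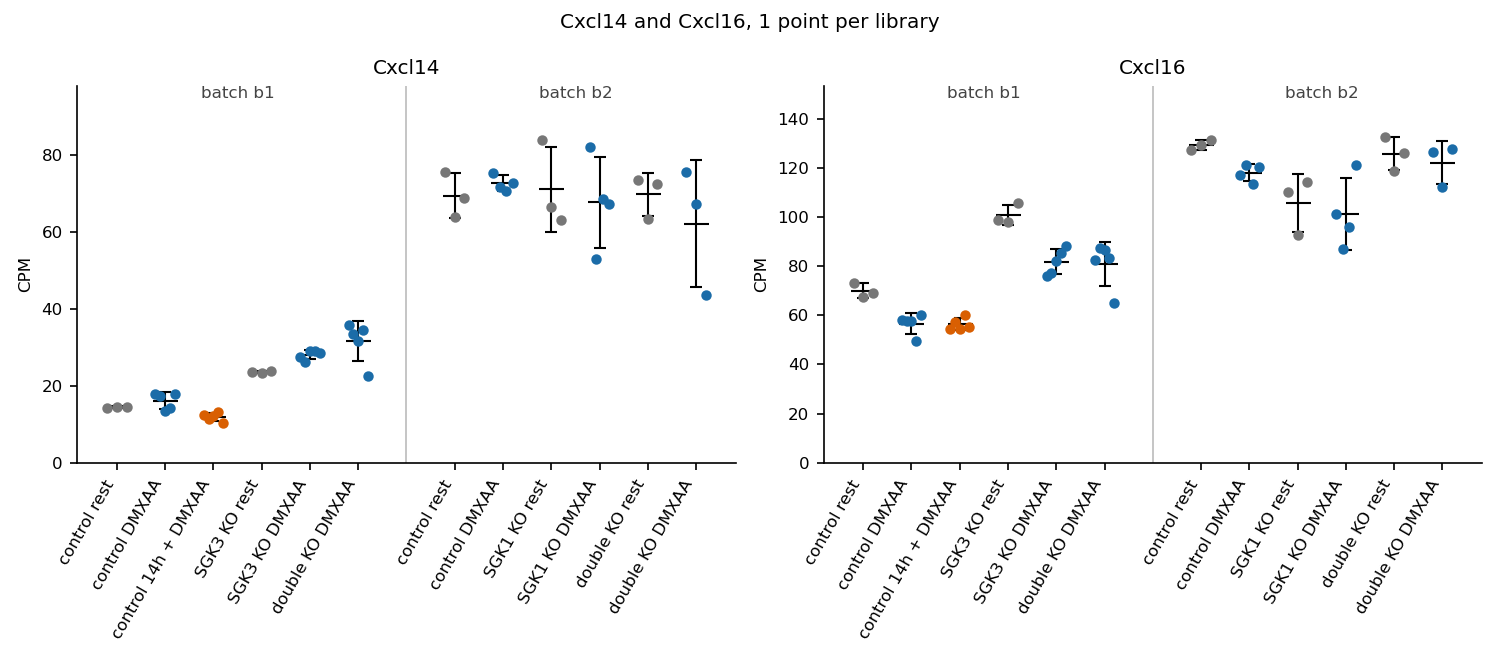
Points show CPM of Cxcl14 and Cxcl16 in each library of b1 and b2 by group, grey untreated, blue with DMXAA and orange with Sanofi-14h then DMXAA, and bars show the mean ± SD. In b1 the 3 untreated SGK3 KO libraries have 23.3 to 23.8 CPM of Cxcl14 and the controls 14.2 to 14.5, while in b2 the groups overlap in Cxcl14.

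Counting over the tested members, the stimulated SGK3 KO had 5 of 6 called against its controls (Cxcl2, Cxcl9 and Cxcl10 down, Cxcl14 and Cxcl16 up), where 22.9% of genes were called. Of these, Cxcl9 passed the filter only through the stimulated control cells, so its call adds no separate support. The double KO of b1 had 4 of 6 (Cxcl10 and Cxcl11 down, Cxcl14 and Cxcl16 up), where 26.4% were. The inhibitor group had 4 of 6, all down (Cxcl2, Cxcl10, Cxcl11 and Cxcl14), where 20.8% were called in either direction and 10.1% were lower. In stimulated cells of b2, edgeR called 0 of 5 in the SGK1 KO, in the double KO and between them, where 8.72%, 12.8% and 1.97% of genes were called. Unadjusted p-values were under 0.05 for 1, 2 and 1 of these members, DESeq2 called 0, 2 and 0, limma on TPM 0, 1 and 0, and the joint fit 1, 2 and 1. The double KO minus control difference changed between batches for 2 of 6 members, Cxcl14 and Cxcl16, where 7.27% of genes were called.

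**Figure D3:**
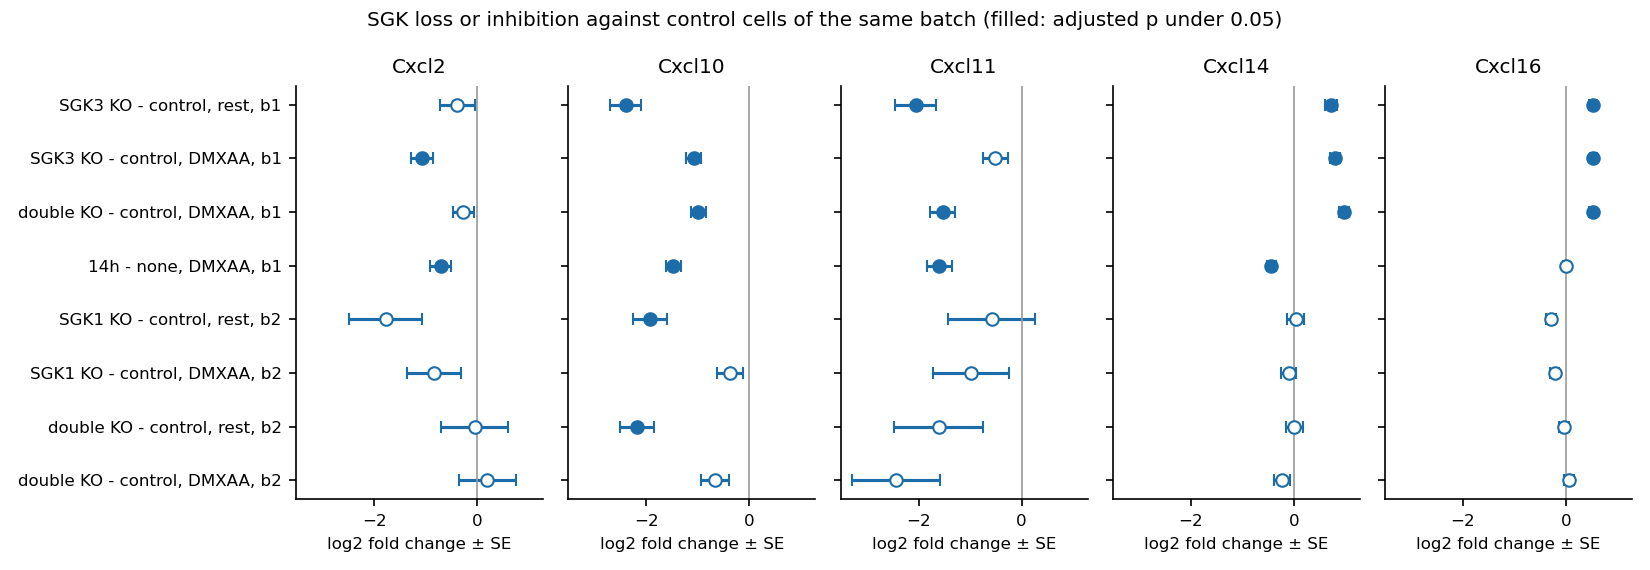
Points are log2 fold changes ± SE (edgeR) of 5 CXC genes for each knockout or inhibitor group minus control cells of the same batch and treatment; filled points have an adjusted p under 0.05. Cxcl10 is below 0 in all 8 comparisons and called in 6 of them, and Cxcl14 is above 0 and called in 3 of the 4 comparisons of b1.

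The wider pathways were described from lists of 14 NF-kappa B and 18 IRF and STAT genes. In b1 control cells, DMXAA raised 10 and lowered 2 of the 14 NF-kappa B genes (median log2 change 0.44, and 0.002 over all tested genes), where 35.3% of genes were called. Tnfaip3 and Nfkbia, inhibitors of NF-kappa B signalling, rose by 3.52 ± 0.11 and 1.17 ± 0.06 log2, and Nfkbiz, a nuclear co-activator, by 2.79 ± 0.13. Of the 18 IRF and STAT genes, 7 rose and 6 fell, with Irf1 up by 2.67 ± 0.09 and Stat2 by 1.11 ± 0.12. Ifnb1, the gene of interferon beta, had 0 counts untreated in every line and a mean of 38.2 CPM in stimulated control cells of b1. In b2 control cells, 5 NF-kappa B genes rose and 1 fell, and 2 IRF and STAT genes rose and 2 fell, where 3.98% of genes were called.

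IRF and STAT genes were also counted between lines. With DMXAA, the SGK3 KO of b1 had 10 of these 18 lower and 2 higher than control cells, with Irf7 at −3.77 ± 0.22, Ifnb1 at −2.73 ± 0.19 and Irf1 at −2.47 ± 0.07. The double KO of b1 also had 10 lower and 2 higher, and the inhibitor group had 9 lower and 3 higher. Over all genes 22.9%, 26.4% and 20.8% were called in these 3 comparisons. In b2 the stimulated SGK1 KO had 7 lower and 1 higher, and the double KO 11 lower, where 8.72% and 12.8% of genes were called, and these became 6 and 9 lower without libraries E, F, P and X. In untreated SGK3 KO, SGK1 KO and double KO cells, 5, 5 and 6 were lower (3 in the SGK1 KO without those libraries), where 10.4%, 6.43% and 3.03% of genes were called. Of the NF-kappa B genes, 2 of 14 were lower and 3 higher in the stimulated SGK3 KO, and 6 were lower and 2 higher with the inhibitor. Of 9 macrophage markers, with DMXAA 2 were lower and 1 higher in the SGK3 KO, and 3 were lower in the double KO of b1, shares near those over all genes. With the inhibitor 4 were lower, where 10.1% of genes were. In b2, 3 were lower and 1 higher in the SGK1 KO, where 8.72% of genes were called. In the double KO of b2, 5 were lower (Lyz2, Cd14, Csf1r, Fcgr1 and Adgre1), where 12.8% were called. The inhibitor and b2 shares of these markers thus lay above those over all genes. Their part in the results was not tested. The B cell marker Cd79a rose with DMXAA in both lines of b1, while Ms4a1, another B cell marker, was at 0 in every library.

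Of 8 listed regulators of chemokine mRNA decay, in either direction, 6 rose and 1 fell with DMXAA in b1 control cells, where 35.3% of genes were called. Among those that rose were Zfp36, which binds AU-rich elements (2.18 ± 0.12), and Zc3h12a, the RNase Regnase-1 (1.73 ± 0.11). In b2 control cells 4 rose, where 3.98% of genes were called. Of 8 CXC receptors, 3 were tested in b1 and 4 in b2. Cxcr4, the receptor of Cxcl12, rose with DMXAA in all 5 comparisons, by 0.92 to 3.63 log2, and was higher in the SGK3 KO than in control cells (3.86 ± 0.41 untreated, adjusted p = 5.24e-08). Cxcr1 and Cxcr2, the receptors of the neutrophil chemokines, had at most 2 and 3 counts. Cxcr3, which Cxcl9, Cxcl10 and Cxcl11 bind, had 33 to 186 counts in each library, and Cxcr6 had at most 25. The 7 other CXC ligands examined had at most 10 counts in any library. Adam10 and Adam17, proteases that shed Cxcl16, rose in b1 control cells with DMXAA, 2 of 3 tested genes of a list of 6, too few to set against the 35.3% of all genes.

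The genes most like each member were taken by Pearson correlation of log2 CPM over the 46 libraries of b1 and b2, with batch means removed, among 15919 genes. These points share treatment and library, and the values are descriptive. Cxcl10 was closest to Oasl1 (r = 0.995), Gm20559 (0.982) and Ifit1 (0.982), and Oasl1 and Ifit1 are interferon-inducible antiviral genes. Cxcl2 was closest to the chemokine genes Ccl4 (0.945) and Ccl3 (0.939) and to Ccrl2 (0.926). Cxcl11 was closest to Hspa5 (0.865), Sp110 (0.817) and Parp14 (0.817). In b1 and b2 these were 0.908 and 0.81, 0.917 and 0.661, and 0.918 and 0.673. Cxcl14 was closest to Tgfb1 (0.83), Clec5a (0.779) and Vim (0.776), but r was 0.872 in b1 and 0.178 in b2 for Clec5a, and 0.912 and −0.242 for Vim. Cxcl16 was closest to Niban2 (0.828), Riox1 (0.820) and Aldh16a1 (0.820), with lower r in b2 than in b1. The values in b1 and b2 were 0.912 and 0.514, 0.88 and 0.554, and 0.871 and 0.638. Between members, r of Cxcl2 with Cxcl10 was 0.937 over the 26 libraries of b1 and 0.920 over the 20 of b2. That of Cxcl10 with Cxcl11 was 0.907 and 0.385, and that of Cxcl14 with Cxcl16 0.786 and 0.130.

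Genes within 100000 bp of the members were also tested. In b1 control cells with DMXAA, 3 of 6 tested neighbours of the Cxcr3 ligands rose, where 35.3% of genes were called. Nup54, a nuclear pore gene, rose by 0.45 ± 0.05 log2, Sdad1 by 0.38 ± 0.05 and Ppef2 by 2.79 ± 0.53, while Art3, Naaa and Scarb2 were not called. In b2 control cells, 0 of 7 neighbours were called by edgeR (2 at an unadjusted p under 0.05, 1 called by DESeq2 and 0 by limma), with Nup54, Sdad1 and Ppef2 at 0.18 ± 0.09, 0.21 ± 0.07 and 0.82 ± 1.69 (adjusted p = 0.395, 0.0910 and 1). In the double KO of b2 Sdad1 rose by 0.34 ± 0.07 (adjusted p = 0.00409), and Naaa fell there and in the SGK1 KO. Near Cxcl16, which fell by 0.31, 3 of 9 tested neighbours fell in b1 control cells with DMXAA and 1 rose. Those that fell were Arrb2 (−0.37 ± 0.05), Pelp1 (−0.29 ± 0.06) and Med11 (−0.29 ± 0.07), and Psmb6 rose by 0.16 ± 0.05. In b2 control cells edgeR, DESeq2 and limma called 0 of the 9, and 1 had an unadjusted p under 0.05.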

How the data were processed

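RNA-seq tables of 50 libraries were used as deposited. Per the submitters' processing notes, STAR 2.7.9a and StringTie 2.2.0 were run on GRCm39. The authors' deposited expected counts were all whole and were tested as they stand. The TPM deposited by the authors gave levels per length and 1 alternative test. From 1 to 16 the most frequent count was 4 (17.5% of those values), so 1 read pair was taken as 4 counts in floors, an assumption. Genes passing filterByExpr (16947 in b1, 16622 in b2) were tested by group with edgeR 4.0.16 (R 4.3.3; TMM, robust quasi-likelihood F test, Benjamini-Hochberg), and between-batch differences over 46 libraries and 18315 genes. Alternatives were RLE scaling, no filter, DESeq2 1.42.0, limma 3.58.1 on log2(TPM + 0.1), a joint fit of both batches, each library left out, a replicate block, b2 without libraries of length trend over 0.1, and b3 added. The code was tested on simulated data. Since nothing states that replicates were separate cultures, p-values may reflect technical spread alone. No replicate files were identical. Named were all members, per list at most the 4 called genes of largest absolute change, and the 3 genes most like each member. Macrophage markers and neighbouring genes were named after their values were seen. Members and lists were chosen with earlier results of these data known. Library J carries labels that disagree and joined no group.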

Additional observations from a re-analysis of the deposited data

Results flagged for a closer look

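The 6 groups of 4 or 5 libraries gave 31 sets of 1 member in 1 group. In 5 sets 1 library was far from the rest, where chance gives about 1 in 20 sets. They fell in 3 groups and 4 libraries, so they are not independent. In stimulated control cells of b1, Cxcl9 was 0.465 CPM in library 1 and Cxcl16 was 49.45 CPM in library 4. In the stimulated double KO of b1, library 5 had 188.9 CPM of Cxcl10 and 65.17 CPM of Cxcl16, the lowest of the group. In the inhibitor group, library 1 had 1.605 CPM of Cxcl11, the highest.

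Differences between batches passed edgeR's test of the difference itself for 3 results. The Cxcl10 response of control cells was larger in b1 by 1.63 log2. The double KO minus control difference with DMXAA was larger in b1 by 1.21 log2 for Cxcl14 and by 0.48 log2 for Cxcl16.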

How the results depend on the processing

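Among alternative values of the member tests other than leaving out 1 library, 653 stayed on their side of the threshold, 19 gained a call and 7 lost one. Without 1 library, 1055 stayed on their side, 7 gained a call and 3 lost one. None changed sign with a call. Values called in neither fit could change sign. Cxcl2 in the untreated SGK3 KO against control cells was −0.39, and −0.82 to 0.08 without single libraries. Of counts of called genes, 88 stayed within 1.5 times and 38 did not. Cxcl1 and Cxcl3 lay under the floor of 12 counts in every library. That floor bounds what a count of 0 allows, and Cxcl3 still had up to 5 counts, in 8 libraries.

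Fitting b1 and b2 together gave these counts of called genes. For DMXAA against rest it called 3870 in control cells and 3029 in the SGK3 KO of b1 (5989 and 5100 within the batch), and 1428, 4410 and 2555 in control cells, SGK1 KO and double KO of b2 (662, 1856 and 1124). In b1 it called 883 for the SGK3 KO at rest and 1982 with DMXAA, 2446 for the double KO, 396 between the 2 lines and 1558 for the inhibitor (1768, 3883, 4468, 858 and 3520). In b2 it called 4732 for the SGK1 KO at rest and 3815 with DMXAA, 1147 and 3961 for the double KO, and 1215 between these lines (1069, 1450, 503, 2134 and 327). For differences in response it called 35, 519 and 544 in the SGK3 KO, SGK1 KO and double KO (176, 75 and 130).

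DESeq2 called 2545 for the SGK1 KO at rest, 651 between double KO and SGK1 KO, and 334, 240 and 322 for the differences in response. Limma on TPM called 429 for DMXAA in control cells of b2, 178 between double KO and SGK1 KO, 97, 34 and 35 for the differences in response, and 853 for the double KO difference between batches (1332). Without libraries E, F, P and X, 654 genes were called for DMXAA in the SGK1 KO, 176 for that line at rest and 29 for its difference in response. With b3 added, 681 were called for DMXAA in the double KO, 371 for the SGK1 KO at rest and 635 with DMXAA, 1300 for the stimulated double KO, and 2 and 1 for the differences in response of SGK1 KO and double KO. The cause of these shifts was not tested.

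Leaving out 1 library gave 403 to 560 calls for DMXAA in control cells of b2, 1143 to 2404 in the SGK1 KO and 703 to 1065 in the double KO. It gave 288 to 3262 for the SGK1 KO at rest, the highest without library D and the lowest without control library B, 948 to 1686 for it with DMXAA, 328 to 372 for the double KO at rest, 1490 to 2201 with DMXAA and 171 to 297 between these lines. The differences in response ranged over 82 to 192, 42 to 121 and 62 to 119, and those between batches over 386 to 594 (response) and 819 to 2117 (double KO).

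In b1, replicate numbers did not pair the libraries: over 57 same-numbered pairs the mean correlation of deviations was -0.004 and 0 exceeded 0.1. With the replicate block, 5800 genes were called for DMXAA in control cells and 180 for the difference in response of the SGK3 KO, and the block changed no call of a member. No paired analysis was possible in b2 because its libraries carry letters with no shared numbers.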

Other observations

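Library J of b3, whose title gives no treatment and whose treatment field gives DMXAA, was placed in no group. It held 307.9 CPM of Cxcl10, 5.918 CPM of Cxcl2, 2.383 CPM of Cxcl11, 0.1047 CPM of Cxcl9, 73.61 CPM of Cxcl14 and 115.2 CPM of Cxcl16. The other b3 libraries were S (SGK1 KO with DMXAA) with 308.2 CPM of Cxcl10 and 123.1 CPM of Cxcl14, and V and W (double KO with DMXAA) with 297.5 and 203.3 CPM of Cxcl10 and 76.09 and 79.74 CPM of Cxcl14. The Cxcl14 value of S was the highest of all 50 libraries.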
